A study of Homo sapiens with 96 samples.

Results

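Splicing in cells treated with GSK591 for 4 days was set directly against splicing in cells treated with MS023 for 4 days, both in A549, a cell line that was established from an adenocarcinoma of the lung. Cells of one group received 1 µM GSK591, an inhibitor of PRMT5, and cells of the other group received 1 µM MS023, an inhibitor of the Type I PRMTs, with 3 poly(A)-RNA seq libraries in each group. The deposited tables set each inhibitor against the same DMSO (0.01%) libraries and hold no comparison of the inhibitors with each other. An event entered when its type, chromosome, strand and every coordinate were identical in the GSK591 and the MS023 table, which held for 107477 of the 160761 events listed in either table and used 6 of the 96 libraries of the series. By type they were 75805 SE (an exon is skipped), 15878 MXE (1 of 2 neighbouring exons is used), 6915 A3SS and 4547 A5SS (an exon begins at another acceptor or ends at another donor) and 4332 RI (an intron is retained). Of these, 93083 had at least 10 reads in each of the 6 libraries and were tested. The libraries of a group are called a, b and c by their position in the tables. The labels number them as replicates and do not say whether they came from separate cultures, so the spread between libraries may be technical. In the main test, nearly all p-values of events rest on this spread pooled over a type, not on that of the event alone.

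Protein arginine methyltransferases (PRMTs) transfer methyl groups to arginines, many of them in RNA-binding proteins. Type I enzymes such as PRMT1 and CARM1 leave asymmetric dimethylarginine, whereas PRMT5, the main Type II enzyme, leaves symmetric dimethylarginine, among others on Sm proteins of the spliceosomal snRNPs. Alternative splicing joins different exons, or different ends of one exon, into the mRNA of one gene, and the chosen form can change the protein, shift the reading frame or leave an intron in the transcript. The inclusion level Ψ is the share of transcripts that hold the longer form, or, for MXE, the exon that comes first in transcript order. It was computed from inclusion and skipping reads after each was divided by its effective length, so library size cancels. ΔΨ is the mean Ψ of the GSK591 libraries minus the mean Ψ of the MS023 libraries. The libraries hold RNA of whole cultures, so a smaller share of cells that use a form, a smaller share within each cell and a shorter life of its RNA cannot be told apart.

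Markers of epithelial cells, which A549 cells derive from, had reads on most of their listed events. KRT18, an epithelial keratin, had 17847 to 24371 reads on its listed event in the 6 libraries, and KRT8, its partner, had 392133 or more. EPCAM, a surface protein of epithelia, had 13 to 16 reads with GSK591 and 69 to 81 with MS023, and the tight-junction gene CLDN7 had 0 to 6 and 13 to 31. Of the markers of other cells, PTPRC, CD3E, COL1A2 and PECAM1 had no listed event, and COL1A1, a collagen of fibroblasts, had 25 to 32 reads with GSK591 and 92 to 114 with MS023. KRT19 and ESRP1 had no listed event either. The part of these differences in the results was not tested. The tested events held 65003781 to 81496480 reads in each library, where a read on overlapping events was counted more than once. Libraries of one group differed by 2.27 to 2.54 times the sampling variance, so no library was a copy of another.

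The sequences below were read from GRCh37, which is the build of the deposited hg19 coordinates, and are given on the strand of the gene. The first 5 are skipped exons with ΔΨ of both signs, shown because each keeps the reading frame and each is described below. Capitals mark the exon, and the lower-case letters are 15 bases of intron on each side. EXOC7 lies at chr17:74087209-74087331 (minus strand), CACNA1G at chr17:48680166-48680264 (plus), UPF3A at chr13:115051762-115051890 (plus), POLDIP3 at chr22:42997961-42998128 (minus) and MYO18A, an exon of 12 bases, at chr17:27443447-27443488 (minus).
EXOC7: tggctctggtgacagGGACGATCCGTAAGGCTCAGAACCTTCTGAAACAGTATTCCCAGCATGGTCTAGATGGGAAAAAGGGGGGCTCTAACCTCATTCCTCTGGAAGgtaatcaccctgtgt
CACNA1G: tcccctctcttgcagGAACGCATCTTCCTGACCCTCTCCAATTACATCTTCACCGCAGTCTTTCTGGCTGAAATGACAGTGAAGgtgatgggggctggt
UPF3A: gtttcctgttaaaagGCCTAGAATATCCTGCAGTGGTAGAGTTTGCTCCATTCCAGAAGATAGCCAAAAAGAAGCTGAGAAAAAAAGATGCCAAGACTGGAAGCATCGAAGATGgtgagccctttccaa
POLDIP3: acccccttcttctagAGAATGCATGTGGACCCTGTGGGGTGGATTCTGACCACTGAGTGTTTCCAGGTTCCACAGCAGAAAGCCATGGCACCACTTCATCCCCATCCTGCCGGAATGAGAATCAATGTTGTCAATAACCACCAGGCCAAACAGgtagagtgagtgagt
MYO18A: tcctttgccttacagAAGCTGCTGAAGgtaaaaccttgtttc

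The next set is the pair of exons of an MXE of SEC31A, at chr4:83783672-83783740 and chr4:83782769-83782876 (minus strand), again with the exons in capitals. The THOC2 line holds, in capitals, the 81 bases that an upstream acceptor adds to an exon, at chrX:122753273-122753383 (minus strand).
SEC31A first exon: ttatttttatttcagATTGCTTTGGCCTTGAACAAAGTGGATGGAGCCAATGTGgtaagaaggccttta
SEC31A second exon: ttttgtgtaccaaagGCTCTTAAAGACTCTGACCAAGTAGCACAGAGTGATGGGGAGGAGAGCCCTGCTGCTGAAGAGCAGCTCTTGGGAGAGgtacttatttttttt
THOC2: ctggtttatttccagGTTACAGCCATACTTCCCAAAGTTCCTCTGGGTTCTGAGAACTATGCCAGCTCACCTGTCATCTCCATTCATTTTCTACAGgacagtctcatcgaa

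The short intron of THOC6 that follows was spliced in most transcripts with MS023 and kept in about as many as not with GSK591. Here capitals mark the intron and lower case 15 bases of each exon, at chr16:3075810-3075939 (plus strand). Guanine and cytosine made up 66.0% of its 100 bases.
THOC6: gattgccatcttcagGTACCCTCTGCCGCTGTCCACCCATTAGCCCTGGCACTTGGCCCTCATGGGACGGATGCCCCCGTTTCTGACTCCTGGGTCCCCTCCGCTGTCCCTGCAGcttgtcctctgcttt

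The last set gives the donors that compete in the 4 A5SS described below, with the last 3 exon bases in capitals and the first 6 intron bases in lower case. The donor named long ends the longer exon. For CCDC84 (plus strand) the long donor is chr11:118882019-118882027 and the short one chr11:118881991-118881999, and for NT5C (minus) they are chr17:73127054-73127062 and chr17:73127134-73127142. For FXYD5 (plus) they are chr19:35657226-35657234 and chr19:35657072-35657080, and for TMEM256-PLSCR3 (minus) chr17:7296914-7296922 and chr17:7297417-7297425.
CCDC84 long: CCAgtatcc
CCDC84 short: GAGgttggt
NT5C long: AAGgtgggg
NT5C short: AAGgtgtgg
FXYD5 long: CCAgtgaga
FXYD5 short: ATGgtaagt
TMEM256-PLSCR3 long: CAGgtgagt
TMEM256-PLSCR3 short: CAGgtaagt

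Events of each type differed between the inhibitors, with RI called the most often. Ψ passed the test for 6982 of 64808 SE (10.8%), 1613 of 14780 MXE (10.9%), 677 of 5821 A3SS (11.6%), 933 of 3796 A5SS (24.6%) and 1719 of 3878 RI (44.3%), which comes to 11924 of 93083 events (12.8%) in 4613 of 10666 genes. The test was a quasi-binomial model of the inclusion and skipping reads with Benjamini-Hochberg adjustment within each event type, and a call is an adjusted p under 0.05. It gave every adjusted p below unless limma is named. The number of called SE rested on 1 choice made after the data had been opened, which took the prior of the dispersion from events with reads of both forms. With a prior from all events, 689 SE (1.06%), 1637 MXE (11.1%), 543 A3SS (9.33%), 658 A5SS (17.3%) and 1742 RI (44.9%) were called. The 12 named events that lost their call with that prior were the exons of SRSF6, SRSF7, SRSF10, KAT5, PRMT2, PRMT7, POLDIP3, UPF3A, BCL2L12, MUTYH, SNRPD2 and DYRK1A, with adjusted p from 0.0593 to 0.251. Both directions were nearly equal over all types, with 6011 events higher (6.46% of those tested) and 5913 lower (6.35%) with GSK591, but not within a type. Of the called SE, 33.8% were higher with GSK591, with 2359 higher and 4623 lower (3.64% and 7.13% of the tested SE). The share was 62.9% for MXE, with 1015 and 598 (6.87% and 4.05%), and 67.9% for A3SS, with 460 and 217 (7.9% and 3.73%). It was 67.3% for A5SS, with 628 and 305 (16.5% and 8.03%), and 90.1% for RI, with 1549 and 170 (39.9% and 4.38%). Exons were therefore skipped more often with GSK591 in most called SE. By Ψ, called alternative splice sites mostly gave the longer exon and called introns were mostly kept. Reads within the added bases of an A3SS or A5SS count for the longer exon, also those of a retained intron. Their part was not tested. With the prior from all events, 30.0% of the called SE were higher.

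**Figure D1:**
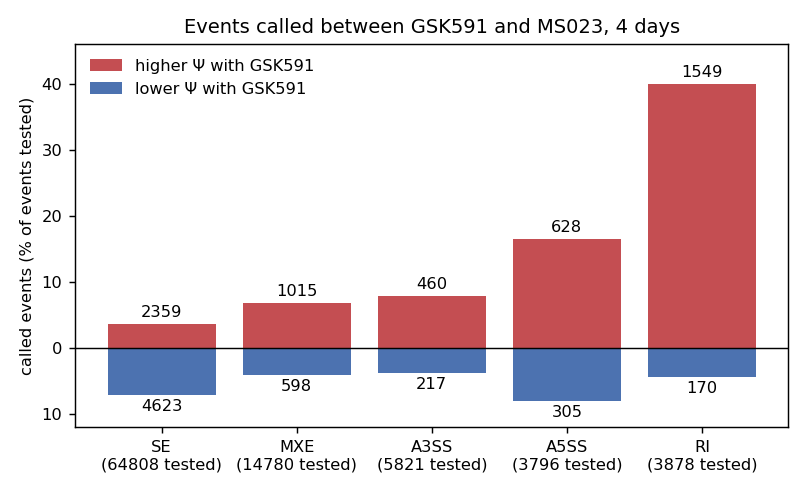
Events called at 4 days in the direct comparison of GSK591 with MS023, by event type (horizontal axis) and direction (bars above 0 for higher and below 0 for lower Ψ with GSK591, vertical axis in percent of the events tested). The number at each bar is the number of events. Lower Ψ with GSK591 prevails among SE (4623 against 2359), and higher Ψ among RI (1549 against 170).

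The differences were moderate in size for most called events. A ΔΨ of at least 0.1 in either direction was reached by 6042 called events (6.49% of those tested), which were 3464 SE (5.35%), 786 MXE (5.32%), 348 A3SS (5.98%), 506 A5SS (13.3%) and 938 RI (24.2%). The 3 libraries of one group lay all above or all below those of the other in 21% of the tested SE, 24.1% of MXE, 23.5% of A3SS, 34.1% of A5SS, 49.9% of RI and 23.4% of all events, and each named event below was required to be so. The median ΔΨ over all tested events, called or not, was 0 for SE, 0.00213 for MXE, 0.00128 for A3SS, 0.00266 for A5SS and 0.0257 for RI. An exact permutation test of these medians over the 6 libraries (two-sided) gave p = 1 for SE and p = 0.1 for the other types, which is the smallest value that 3 libraries against 3 can give. For SE this permutation test could not decide, since with a median of 0 every arrangement of the libraries counts as at least as large. Over the 27274 SE with levels not near 0 or 1, the median ΔΨ was -0.0128. The mean SE level was 0.8207 to 0.8213 in the GSK591 libraries and 0.8276 to 0.8288 in the MS023 libraries, without overlap. These SE values were not tested. The RI median level was 0.271 to 0.281 in the GSK591 libraries and 0.150 to 0.155 in the MS023 libraries, again without overlap. The choice of test set the number of calls, since limma on the log2 odds of inclusion called 3287 SE, 626 MXE, 193 A3SS, 579 A5SS and 1427 RI. RI (36.8%) and A5SS (15.3%) were again called the most often, whereas MXE (4.24%) and A3SS (3.32%) came below SE (5.07%). Of the SE, 2401 were called by both tests, with the same sign in each.

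The intervals of the difference were narrow for most events without a call whose levels lay near 0 or 1, and wider for most of the others. Of the 81159 events not called, 55809 (68.8%) had a 95% interval of the difference that lay within 0.1 on either side of 0. That share was 72.4% for SE, 59.6% for MXE, 62.2% for A3SS, 59.2% for A5SS and 55% for RI. Among the 22924 events without a call that had both mean levels between 0.05 and 0.95, it was 36.6% (8400 events), and among the 8885 SE of this kind 21.6% (1923). The exons of PKM that give the muscle or the embryonic form of pyruvate kinase were among the events whose levels lay close together. The exon of the muscle form, the first of the pair, had a mean Ψ of 0.0189 with GSK591 and 0.0197 with MS023, and the interval of the difference ran from -0.00246 to 0.000608 (adjusted p = 0.562). An A3SS of PCBP2 had a mean Ψ of 0.488 and 0.490, with an interval from -0.0182 to 0.0137, although another event of this gene was among those that differed most. These 2 examples were chosen after their values were seen. The other events without a call had wider intervals, and a difference of 0.1 was not excluded there at this depth.

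Among SE that were called, had at least 50 reads in each library and did not overlap between groups, those with the highest and lowest ΔΨ were in genes of several functions. The same limits hold for the highest and lowest events of the other types. An exon of DTYMK, the kinase that makes thymidine diphosphate (chr2:242621334-242621748, part coding and part UTR), had a Ψ of 0.643, 0.702 and 0.970 with GSK591 and 0.0999, 0.0827 and 0.101 with MS023. The 3 GSK591 libraries lay far above all MS023 libraries but spread widely, and ΔΨ was 0.677 (adjusted p = 3.24e-31, limma 0.04). RAB11FIP3, an effector of Rab11 in endosome recycling, used a coding exon of 135 bases (chr16:541134-541268) at 0.970, 0.948 and 0.890 with GSK591 and at 0.346, 0.338 and 0.275 with MS023. The exon was thus nearly constitutive under one inhibitor and skipped in most transcripts under the other, with ΔΨ = 0.617 (adjusted p = 1.05e-36, limma 0.0181). SPG20, which encodes spartin, had an exon of its UTR (chr13:36910424-36910495) at 0.821, 0.837 and 0.791 with GSK591 and 0.255, 0.220 and 0.287 with MS023, a ΔΨ of 0.562 (adjusted p = 2.07e-26). EXOC7, a subunit of the exocyst that tethers vesicles to the plasma membrane, included the 93-base coding exon printed above at 0.686, 0.583 and 0.598 with GSK591 and at 0.102, 0.117 and 0.128 with MS023. Its ΔΨ was 0.507 (adjusted p = 9.56e-61).

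Within these limits, the 4 exons with the lowest ΔΨ were included in most transcripts with MS023 and skipped in most with GSK591. In CACNA1G, a T-type calcium channel, the 69-base coding exon printed above had a Ψ of 0.181, 0.173 and 0.181 with GSK591 and 0.969, 0.922 and 0.939 with MS023. The means were 0.178 ± 0.00444 and 0.943 ± 0.0238 (SD, n = 3 each), and ΔΨ was -0.765 (adjusted p = 5.11e-34). SDR39U1, a putative short-chain dehydrogenase, had an exon of 152 bases (chr14:24911315-24911466) at 0.143, 0.125 and 0.0937 with GSK591 and at 0.782, 0.824 and 0.851 with MS023. DPY19L3, a glycosyltransferase of the endoplasmic reticulum, had an exon of 1340 bases (chr19:32958380-32959719) at 0.201, 0.204 and 0.256 with GSK591 and 0.888, 0.961 and 0.887 with MS023. Its levels rested on 48, 50 and 43 skipping reads with GSK591 and on 3, 1 and 3 with MS023. RHPN1 had a 157-base coding exon at 0.216, 0.179 and 0.343 with GSK591 and 0.913, 0.916 and 0.814 with MS023. In each of these genes the lowest MS023 library was above the highest GSK591 library, as the choice required. ΔΨ was -0.698 for SDR39U1 (adjusted p = 7.28e-66), -0.692 for DPY19L3 (adjusted p = 1.10e-19) and -0.635 for RHPN1 (adjusted p = 6.71e-19).

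**Figure D2:**
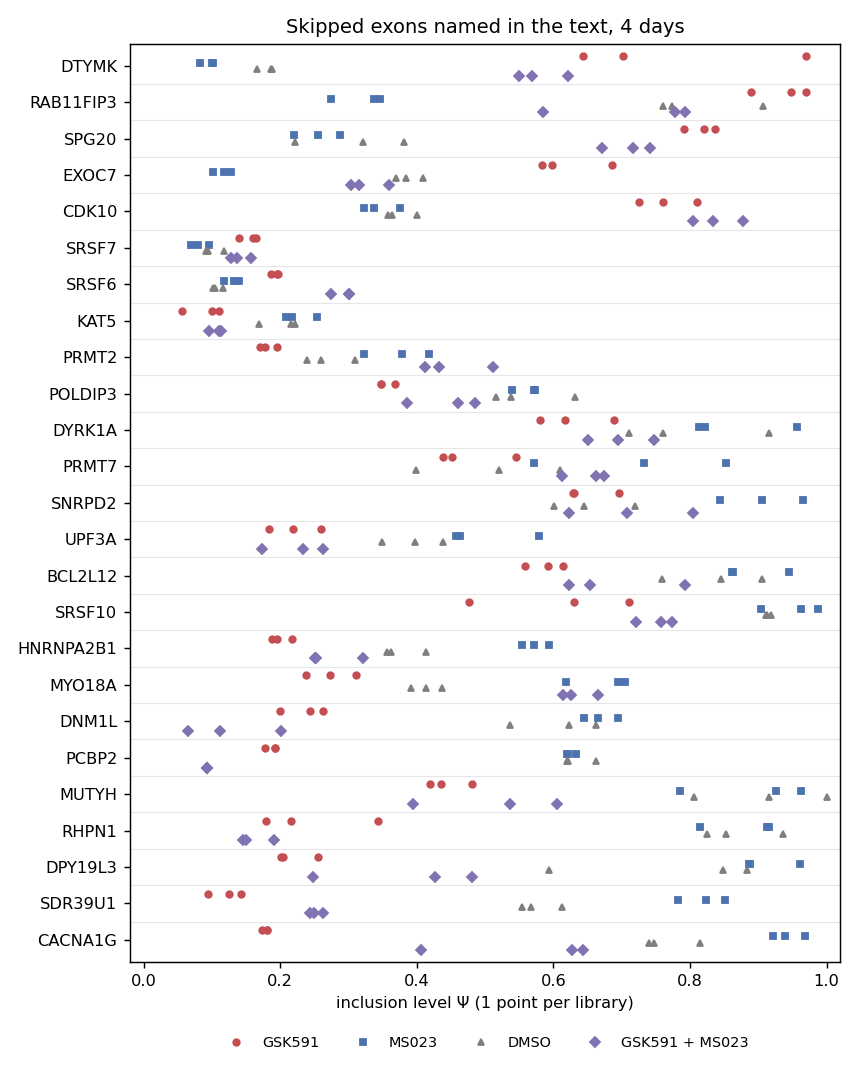
Ψ of each library (points) on the horizontal axis for the named skipped exons, in order of decreasing ΔΨ, with circles for GSK591, squares for MS023, triangles for DMSO and diamonds for both inhibitors. Circles and squares stand apart in every exon, which the choice of named events required. ΔΨ ran from 0.677 for DTYMK to -0.765 for CACNA1G.

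Called SE differed in length by direction. Among the called exons of 28 to 60 bases, 16.1% were higher with GSK591, and this share was 24.5% at 61 to 100 bases, 33.4% at 101 to 150, 47.3% at 151 to 300 and 60.5% above 300 bases. Microexons of 27 bases or less stood outside this order at 27% of 111 called. The order over the other classes was the same when each exon was counted once (14.7% to 59.5%) with limma (10.7% to 54.9%) and with the prior from all events (7% to 76.8%). The share of tested exons that were called was lowest at 101 to 150 bases (9.94%) and highest for microexons (18.4%). SE with lower Ψ under GSK591 lay between shorter introns, with medians of 1242 bases upstream and 1124 downstream, against 2330 and 2142 over all tested SE. For SE with higher Ψ these medians were 1913 and 1813. The length was a multiple of 3, which keeps the reading frame, in 46% of the SE with higher Ψ, 42.7% of those with lower Ψ and 41% of those tested. Introns with a donor that begins with GTATCC or ATATCC, the letters of U12-type introns, lay before or after the exon in 240 tested SE. Of these, 40 (16.7%, against 10.8% of all SE) were called, 19 higher and 21 lower. They were found in 47 A3SS, of which 3 (6.38%, against 11.6%) were called, and in 32 A5SS, of which 8 (25.0%, against 24.6%) were called. The donor was read on the strand of the gene, the search for these letters covered only the donor, and a match does not show which spliceosome removes the intron. These are descriptions of overlapping events that share exons, and no test was made of them.

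**Figure D3:**
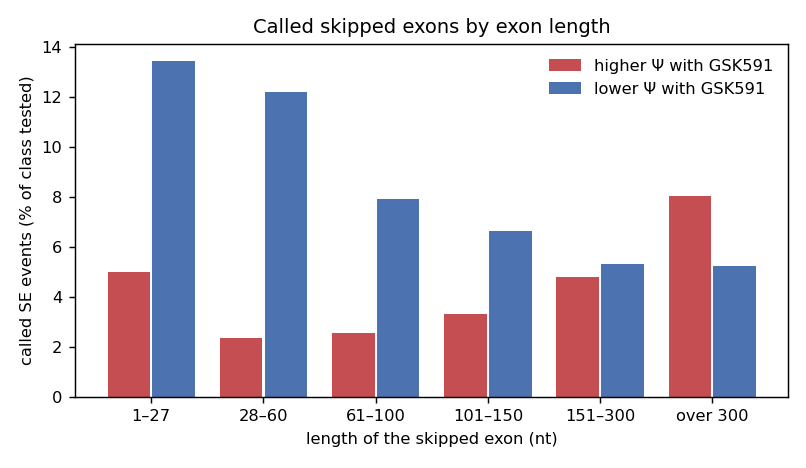
Share of tested skipped exons that were called higher or lower with GSK591 (bars, vertical axis in percent of the length class) by exon length in bases (horizontal axis). Lower Ψ goes from 12.2% of the exons of 28 to 60 bases to 5.23% of those over 300 bases, and higher Ψ from 2.33% to 8.02%.

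Named exons of 3 RNA-binding proteins had a lower Ψ with GSK591 than with MS023, and those of 2 SR proteins a higher one. PCBP2, a poly(C)-binding protein of the hnRNP group, included a 39-base coding exon (chr12:53861589-53861627) at 0.192, 0.192 and 0.177 with GSK591 and 0.621, 0.633 and 0.620 with MS023, with at least 2740 reads per library. ΔΨ was -0.437, and the adjusted p was below the smallest number that the software writes (limma 0.0183). HNRNPA2B1, which binds RNA in the nucleus and in transport granules, had a UTR exon (chr7:26230613-26230748) at 0.188, 0.196 and 0.217 with GSK591 and 0.593, 0.554 and 0.572 with MS023, a ΔΨ of -0.373 (adjusted p = 2.30e-75). SRSF10, an SR protein that acts as a splicing repressor when dephosphorylated, had a 51-base exon (chr1:24298063-24298113) at 0.477, 0.630 and 0.710 with GSK591 and at 0.904, 0.987 and 0.963 with MS023 (ΔΨ = -0.346, adjusted p = 4.80e-17). These 3 exons were included less with GSK591. The exons of SRSF6 and SRSF7 known as poison exons, which bring a premature stop codon into the mRNA, were included more. For SRSF7 (chr2:38976040-38976488), Ψ was 0.139, 0.164 and 0.160 with GSK591 and 0.0796, 0.0698 and 0.0958 with MS023, a ΔΨ of 0.0728 (adjusted p = 1.03e-30, limma 0.145). For SRSF6 (chr20:42087793-42088060), Ψ was 0.186, 0.197 and 0.196 against 0.117, 0.139 and 0.133, a ΔΨ of 0.0636 (adjusted p = 5.30e-07, limma 0.274). Both differences were small beside the others, and the lack of overlap between the groups was a condition for naming these exons.

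Single exons of KAT5, PRMT2, PRMT7, POLDIP3 and UPF3A also had a lower Ψ with GSK591 than with MS023. They do not stand for their lists, in which 6 called SE were higher and 7 lower for PRMTs with their cofactors, and 4 and 7 for mRNA export factors. The exon of KAT5 whose skipping gives a shorter form of the TIP60 acetyltransferase (chr11:65480819-65480974) had a Ψ of 0.110, 0.0561 and 0.0997 with GSK591 and 0.209, 0.217 and 0.254 with MS023, a ΔΨ of -0.138 (adjusted p = 7.51e-11). PRMT2, itself an arginine methyltransferase, had a UTR exon (chr21:48056351-48056459) at a mean of 0.181 ± 0.0126 with GSK591 and 0.373 ± 0.0481 with MS023 (SD, n = 3 each, adjusted p = 5.64e-12). An exon of PRMT7, another member of the family (chr16:68381114-68381197), was at 0.478 ± 0.0582 and 0.719 ± 0.140 (adjusted p = 0.00242). Against DMSO this exon differed by -0.0313 with GSK591 (adjusted p = 0.768) and by 0.209 with MS023 (adjusted p = 0.0455). The lack of overlap between the groups was a condition for naming the exons of PRMT2 and PRMT7. The 138-base exon of POLDIP3, which couples splicing to translation and associates with the mRNA export complex, was at 0.354 ± 0.0118 and 0.561 ± 0.0186 (adjusted p = 3.22e-05), and the 99-base exon of UPF3A, a factor of nonsense-mediated decay, at 0.220 ± 0.0377 and 0.50 ± 0.0684 (adjusted p = 6.92e-09). Both are printed above and keep the frame. For KAT5, PRMT2, PRMT7, POLDIP3 and UPF3A limma did not pass, with adjusted p between 0.0558 and 0.199, and PRMT7 lost the call without MS023 library c (adjusted p = 0.0866).

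Other named exons were in genes of cell shape, mitochondria, repair, apoptosis and kinase signalling. MYO18A, an unconventional myosin at the Golgi, included the 12-base exon printed above at 0.273, 0.311 and 0.238 with GSK591 and 0.705, 0.619 and 0.695 with MS023 (ΔΨ = -0.399, adjusted p = 2.13e-19). DNM1L, the GTPase of mitochondrial fission, included a 33-base exon (chr12:32891198-32891230) at 0.199, 0.263 and 0.244 with GSK591 and 0.695, 0.645 and 0.665 with MS023 (ΔΨ = -0.433, adjusted p = 3.06e-14). MUTYH, a glycosylase of base excision repair, included a 182-base exon (chr1:45799085-45799266) at 0.419, 0.481 and 0.435 against 0.785, 0.963 and 0.926 (ΔΨ = -0.447, adjusted p = 2.41e-05). All 3 exons were used in most transcripts with MS023 and in fewer than 1 of 2 with GSK591. BCL2L12, a relative of the BCL2 regulators of apoptosis, had an 87-base exon (chr19:50172108-50172194) at 0.588 ± 0.0281 with GSK591 and 0.890 ± 0.0474 with MS023 (SD, n = 3 each, adjusted p = 2.63e-05). CDK10, a cyclin-dependent kinase, went the other way, with a 227-base exon (chr16:89753997-89754223) at 0.765 ± 0.0421 and 0.346 ± 0.0273 (adjusted p = 7.43e-09). A UTR exon of SNRPD2, a protein of the Sm core of the snRNPs, was at 0.652 ± 0.0383 and 0.905 ± 0.0605 (adjusted p = 0.00563). An exon of DYRK1A, a kinase that phosphorylates splicing factors, was at 0.629 ± 0.0552 and 0.864 ± 0.0807 (adjusted p = 0.00174). The calls of SNRPD2 and DYRK1A each rested on 1 MS023 library, with adjusted p = 0.0823 without library a and 0.0789 without library c, and limma gave 0.0756 and 0.146.

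MXE were higher for the first exon with GSK591 in 1015 of 1613 called events. Reads within either exon count for its form, so a pair of exons that most transcripts hold together lies near 0.5, and the median Ψ of the tested MXE was 0.486 with GSK591 and 0.482 with MS023. SNHG1, a long noncoding RNA that hosts snoRNAs, used the first exon (chr11:62622605-62622688) rather than the second (chr11:62622360-62622410) at 0.816, 0.803 and 0.890 with GSK591 and at 0.349, 0.330 and 0.357 with MS023. By length-adjusted reads, the first exon prevailed with GSK591 and the second with MS023, with ΔΨ = 0.491 (adjusted p = 2.27e-41). TRIM5, a restriction factor against retroviruses, used its 23-base exon (chr11:5688919-5688941) rather than the 101-base exon that follows (chr11:5687211-5687311) at 0.682, 0.761 and 0.705 with GSK591 and 0.210, 0.219 and 0.335 with MS023 (ΔΨ = 0.461, adjusted p = 1.12e-13). LUC7L, a homologue of a U1 snRNP protein, was at 0.447, 0.514 and 0.467 against 0.103, 0.103 and 0.0825 (ΔΨ = 0.380, adjusted p = 4.55e-73). The level of HNRNPC was 0.652 ± 0.0702 with GSK591 and 0.383 ± 0.0914 with MS023 (SD, n = 3 each, adjusted p = 0.000231, limma 0.0841). HNRNPC and PCBP2 have processed copies elsewhere in the genome, and reads of these copies cannot be told from theirs with certainty.

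The lowest MXE among those with at least 50 reads and no overlap were in SEC31A and EEF1D. SEC31A, a coat protein of the vesicles that leave the endoplasmic reticulum, used the 39-base rather than the 78-base exon printed above at 0.272, 0.270 and 0.253 with GSK591 and 0.697, 0.723 and 0.683 with MS023. The second exon thus held the larger share of length-adjusted reads with GSK591 and the first with MS023 (ΔΨ = -0.436, adjusted p = 1.03e-16). Both exons are coding and of a length that keeps the frame. Whether single transcripts held both exons was not tested. EEF1D, a subunit of the translation elongation factor that reloads eEF1A with GTP, was at 0.296, 0.307 and 0.346 with GSK591 and 0.751, 0.780 and 0.746 with MS023 (ΔΨ = -0.443, adjusted p = 3.38e-24). The first exon was the longer of the pair in 57.3% of the MXE with higher Ψ, in 41.3% of those with lower Ψ and in 48.8% of those tested. Among events whose exons differ in length by a multiple of 3, 646 of 5634 (11.5%) were called, and among the others 967 of 9146 (10.6%).

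A3SS had a higher Ψ with GSK591, towards the upstream acceptor that adds bases to the exon, in 460 of 677 called events. Reads within these bases count for the longer exon, and those of a retained intron were not told apart. The largest difference among A3SS with at least 50 reads and no overlap was in RNF216, a ubiquitin ligase, where an upstream acceptor adds 269 bases (chr7:5778984-5779252). Its Ψ was 0.619, 0.694 and 0.609 with GSK591 and 0.0391, 0.0253 and 0.0261 with MS023 (ΔΨ = 0.610, adjusted p = 7.56e-72), so a form that was rare under one inhibitor was the main form under the other. PLD3, a lysosomal nuclease, had 35 added bases of UTR (chr19:40872291-40872325) at 0.894, 0.718 and 0.827 with GSK591 and 0.295, 0.290 and 0.327 with MS023 (ΔΨ = 0.509, adjusted p = 2.75e-15). THOC2, the largest subunit of the THO complex in mRNA export, used the acceptor that adds the coding bases printed above at 0.216, 0.178 and 0.245 against 0.0727, 0.0706 and 0.0785 (ΔΨ = 0.139, adjusted p = 6.84e-11). The short form remained the main one in THOC2 in all 6 libraries. Differences in the other direction were found in TMEM91, at 0.349 ± 0.0222 with GSK591 and 0.788 ± 0.0735 with MS023 (SD, n = 3 each, adjusted p = 7.08e-05), and SH3TC1, at 0.440 ± 0.00934 and 0.866 ± 0.163 (adjusted p = 0.00460). SH3TC1 lost its call without MS023 library b (adjusted p = 0.0792) and with limma (0.120). Acceptors 3 bases or less apart were called in 12 of 726 events (1.65%), and those over 100 bases apart in 318 of 1738 (18.3%). The longer form of such neighbouring acceptors gains at most 3 bases, which leaves little room for reads within them. The part of this limit was not tested.

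A5SS had a higher Ψ with GSK591, towards the downstream donor that lengthens the exon, in 628 of 933 called events. Here too, reads of a retained intron within the added bases were not told apart. CCDC84, also known as CENATAC, a protein of the minor spliceosome that removes U12-type introns, added 28 bases (chr11:118881994-118882021) at 0.617, 0.817 and 0.771 with GSK591 and at 0.151, 0.0806 and 0.174 with MS023 (ΔΨ = 0.60, adjusted p = 2.25e-15). The donor used more with GSK591 is the one printed with the intron letters gtatcc, and the competing upstream donor begins with gttggt. NT5C, a nucleotidase that removes phosphate from deoxyribonucleotides, added 80 bases (chr17:73127060-73127139) at 0.794, 0.743 and 0.691 with GSK591 and at 0.180, 0.167 and 0.150 with MS023 (ΔΨ = 0.577, adjusted p = 3.32e-105). FXYD5, which encodes dysadherin, a regulator of the sodium pump, added 154 bases (chr19:35657075-35657228) at 0.406, 0.375 and 0.415 with GSK591 and at 0.862, 0.899 and 0.860 with MS023 (ΔΨ = -0.475, adjusted p = 1.50e-115). The gene listed as TMEM256-PLSCR3, also known as PLSCR3, added 503 bases (chr17:7296920-7297422) at 0.185, 0.162 and 0.203 with GSK591 and 0.655, 0.701 and 0.773 with MS023 (ΔΨ = -0.526, adjusted p = 2.05e-38). In all 4 genes the main form of one inhibitor was the minor form of the other. In FXYD5 and TMEM256-PLSCR3, the upstream donor that GSK591 libraries used more begins with gtaagt, as printed above.

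The donor bases of called A5SS differed by direction. The last exon base before the upstream (short) donor was G in 69.1% of the A5SS with higher Ψ under GSK591, in 85.9% of those with lower Ψ and in 76.5% of those tested. For the downstream (long) donor this share was 81.4%, 75.1% and 79%. By Ψ, the donor used more with GSK591 thus carried this G more often than its competitor in both directions. The shares were 81.4% against 69.1% and 85.9% against 75.1%. At the fifth intron base the shares of G were 74.5% for the long and 67.2% for the short donor of the A5SS with higher Ψ, and 72.1% and 75.7% in those with lower Ψ. These shares are descriptions without a test.

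**Figure D4:**
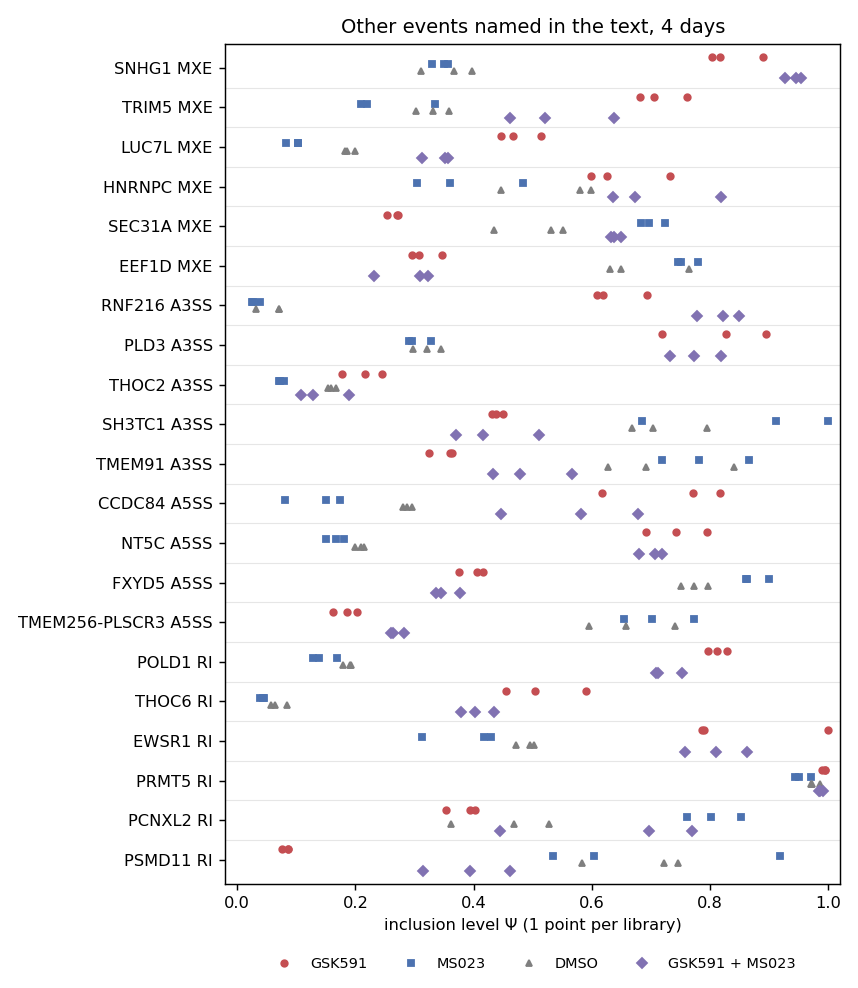
Ψ of each library (points) on the horizontal axis for the named MXE, A3SS, A5SS and RI, with circles for GSK591, squares for MS023, triangles for DMSO and diamonds for both inhibitors. RNF216, CCDC84, NT5C and POLD1 lie high with GSK591 and low with MS023, whereas SEC31A, EEF1D, FXYD5 and PSMD11 lie the other way.

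Introns were kept more with GSK591 in 1549 of the 1719 called RI, among them introns in genes of DNA replication, mRNA export and RNA binding. POLD1, the catalytic subunit of DNA polymerase delta, kept an intron of 569 bases (chr19:50919084-50919652) at 0.796, 0.829 and 0.812 with GSK591 and 0.169, 0.129 and 0.138 with MS023 (ΔΨ = 0.667, adjusted p = 1.62e-123). THOC6, like THOC2 a subunit of THO, kept the 100-base intron printed above at 0.503, 0.454 and 0.590 against 0.0384, 0.0454 and 0.0442 (ΔΨ = 0.473, adjusted p = 1.70e-44). In both genes the spliced form prevailed in all MS023 libraries. EWSR1, an RNA-binding protein of the FET family, kept an intron of 299 bases (chr22:29694886-29695184) at 1.00, 0.789 and 0.787 with GSK591 and 0.417, 0.430 and 0.312 with MS023 (ΔΨ = 0.472, adjusted p = 2.52e-13, limma 0.0622). The intron listed for PRMT5 itself (chr14:23389941-23390048) is annotated as UTR in other transcripts and was kept nearly always, at 0.993 ± 0.00334 with GSK591 and 0.955 ± 0.0134 with MS023 (SD, n = 3 each, adjusted p = 0.000282).

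Introns with lower Ψ under GSK591 were few and longer. PSMD11, a subunit of the proteasome lid, had an intron of 769 bases (chr17:30806395-30807163) at a Ψ of 0.0862, 0.0764 and 0.0856 with GSK591 and 0.535, 0.918 and 0.604 with MS023 (ΔΨ = -0.603, adjusted p = 7.73e-23). Inclusion reads of this event were 93, 109 and 132 with GSK591 and 71, 69 and 94 with MS023. Spliced reads were 160, 214 and 229 against 10, 1 and 10. The levels thus differed through the spliced reads, and the inclusion reads were not more numerous with MS023. The MS023 libraries spread widely but lay far above those of GSK591. PCNXL2, a pecanex homologue, kept 1614 bases (chr1:233120224-233121837), which are annotated in large part as UTR, at 0.383 ± 0.0264 with GSK591 and 0.805 ± 0.0455 with MS023 (SD, n = 3 each, adjusted p = 1.59e-05). The levels of PCNXL2 rested on 20, 25 and 33 spliced reads with GSK591 and on 6, 5 and 3 with MS023. The median length was 235 bases for RI with higher Ψ, 417.5 for those with lower Ψ and 252 for those tested. Of the called introns up to 100 bases, 322 of 336 (95.8%) had a higher Ψ with GSK591, and of those over 1000 bases 172 of 208 (82.7%). Introns whose donor begins with GTATCC or ATATCC were called in 13 of 29 cases (44.8%, 8 higher and 5 lower), which is near the share of all RI.

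Lists of splicing regulators are given beside the 12.8% of all tested events that were called. Among SR proteins, 18 of 65 events (27.7%) in 8 of 10 genes with tested events were called, 9 higher and 9 lower with GSK591. TRA2 and SR-related proteins had 39 of 200 (19.5%, 25 higher and 14 lower), hnRNP proteins 67 of 310 (21.6%, 37 and 30), other RNA-binding regulators of splicing 77 of 431 (17.9%, 41 and 36) and splicing kinases 14 of 73 (19.2%, 8 and 6). Called introns were mostly kept more with GSK591 in these lists as among all called RI (90.1% higher), with 2 higher and 1 lower in SR proteins, 6 and 0 in TRA2 and SR-related proteins, 8 and 1 in hnRNP proteins, 13 and 0 in the other regulators and 4 and 1 in the kinases. HNRNPH1, which binds runs of G, held 5 of the 8 hnRNP introns, and its introns, some of which overlap, were kept at means of 0.359, 0.298 and 0.308 with GSK591 and 0.0909, 0.0917 and 0.116 with MS023 for the largest 3 (adjusted p between 4.12e-142 and 1.93e-89). It was chosen after its values were seen. Proteins of the snRNPs and of the SMN complex that assembles them had 24 of 168 (14.3%, 17 and 7), mRNA export factors 27 of 166 (16.3%, 17 and 10, among them 10 introns kept more and 0 less), and PRMTs with their cofactors 17 of 126 (13.5%, 9 and 8). The median ΔΨ over tested events was 0 for each of these lists but the export factors (0.000178), and 0 over all events.

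Lists of genes outside splicing lay on both sides of that background. Genes with known mutually exclusive exons had 60 of 253 events called (23.7%, 33 higher and 27 lower) and genes with isoforms of epithelial or mesenchymal cells 95 of 404 (23.5%, 43 and 52), of which 61 were SE (24 and 37). Apoptosis genes had 35 of 188 (18.6%, 16 and 19), transcription kinases and cyclins 23 of 143 (16.1%, 18 and 5) and regulators of p53 21 of 139 (15.1%, 9 and 12). DNA repair genes, with 123 of 1139 (10.8%, 57 and 66), and factors of nonsense-mediated decay, with 19 of 196 (9.69%, 9 and 10), lay below it. In the repair genes 50 of 71 called SE had a lower Ψ with GSK591 and all 15 called RI a higher one, while over all events 4623 of 6982 called SE were lower and 1549 of 1719 called RI higher. In the decay factors 9 of 11 called SE were lower. The median ΔΨ over tested events was -0.000267 for regulators of p53, -4.36e-05 for apoptosis genes, -9.92e-06 for the epithelial or mesenchymal list and 0 for the other 4. Events of one gene share exons, the lists were chosen with earlier results known, and no list was tested as a set.

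Calls were spread over types within many genes. Of the 4613 genes with a call, among 10666 with tested events, 2862 had calls of 1 type, 1181 of 2, 423 of 3, 116 of 4 and 31 of all 5. GAS5, a noncoding host of snoRNAs, led with 31 different called segments, followed by ABCC3, a drug transporter, with 28, ACADVL, an enzyme of fatty acid oxidation, with 23, and EEF1D with 23. Of the 37 called events of GAS5, 12 were higher with GSK591, against 20 of 33 for ABCC3 and 11 of 27 for ACADVL. These counts are not set beside the number of tested events of each gene. A gene with more tested events can hold more calls, so the order does not show that these genes were called more often.

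The values of each inhibitor against DMSO at 4 days are set side by side, since both comparisons share the DMSO libraries and the events were called from the same inhibitor libraries. Over all events, 9.94% of 93254 were called between GSK591 and DMSO and 2.43% of 94425 between MS023 and DMSO. Of the RI with higher Ψ in the direct comparison, 1160 of 1540 were called higher with GSK591 than with DMSO (33.8% of all tested RI were) and 195 lower with MS023 than with DMSO (5.61% of all). Of the SE with lower Ψ, 2854 of 4605 were called lower with GSK591 than with DMSO (6.30% of all) and 348 higher with MS023 (0.778%). The SE with higher Ψ were less one-sided. Of 2344, 830 were called higher with GSK591 (1.89%), and MS023 gave 582 called lower (1.54%), with medians of the difference from DMSO of 0.0346 and -0.0346. Of the A5SS with higher Ψ, 432 of 623 were called higher with GSK591 (14.4%), while 68 were called lower with MS023 (2.82%). The corresponding counts were 214 and 71 of 459 A3SS (4.65% and 1.66%) and 540 and 66 of 1013 MXE (5.23% and 0.642%).

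Named events differed in where they lay against DMSO. Some passed the test under one inhibitor and some under both. HNRNPC (adjusted p = 0.382 with GSK591 and 0.153 with MS023), SNRPD2 (0.996 and 0.0637), SH3TC1 (0.132 and 0.747) and PRMT5 (0.0706 and 0.299) passed under neither. For PCBP2 the mean Ψ was 0.635 ± 0.0241 with DMSO, 0.187 with GSK591 and 0.624 with MS023, so MS023 lay within 0.0108 of DMSO (adjusted p = 0.738). Like PCBP2, RHPN1 lay near DMSO with MS023 (0.871 ± 0.0576 with DMSO and 0.881 with MS023), as did MUTYH (0.907 and 0.892) and PSMD11 (0.683 and 0.686). RAB11FIP3 was at 0.814 ± 0.0806 with DMSO, from which MS023 differed by -0.495 (adjusted p = 6.42e-27) and GSK591 by 0.122 (adjusted p = 0.0121). EXOC7 was at 0.387 ± 0.0200 with DMSO and moved in opposite directions, by 0.235 with GSK591 (adjusted p = 4.67e-09) and by -0.272 with MS023 (adjusted p = 3.40e-27). HNRNPA2B1 did so too, at 0.378 ± 0.0308 with DMSO, with -0.177 for GSK591 (adjusted p = 6.39e-22) and 0.195 for MS023 (adjusted p = 3.44e-17). For SEC31A the differences were -0.240 (adjusted p = 0.000306) and 0.196 (adjusted p = 0.0149). PCNXL2 differed from DMSO (0.453 ± 0.0843) with MS023, by 0.351 (adjusted p = 0.0142), and GSK591 gave -0.0701 (adjusted p = 0.544).

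Separate libraries of the same inhibitors at 2 and 7 days gave mostly the same direction. Of the 11514 events called at 4 days that had at least 10 reads in each 2-day library, 10968 (95.3%) had the same sign at 2 days, against 64.5% of all tested events, and 5705 were called there in the same and 12 in the opposite direction. Over all events, 9.13% of 84853 were called at 2 days. At 7 days, 10061 of 10804 (93.1%) had the same sign, against 64.6% of all tested events, 5672 were called in the same and 31 in the opposite direction, and 12.9% of 66834 events were called over all. The differences were smaller in size than at 4 days, where they had been chosen. For RI with higher Ψ the median ΔΨ was 0.112 at 4 days and 0.0747 at 2 days, and for SE with lower Ψ it was -0.0998 and -0.0592 over the events measured at 2 days. THOC6 was at a ΔΨ of 0.396 at 2 days and 0.454 at 7 days, CACNA1G at -0.569 and -0.522, and NT5C at 0.467 and 0.556. Not called at 7 days were PRMT2 (0.0272, adjusted p = 0.571), PRMT7 (0.0137, 0.989), POLDIP3 (-0.0532, 0.604) and SNRPD2 (-0.0527, 0.700). The named events of BCL2L12, DYRK1A and SH3TC1 were not called there either. At 2 days those of SNRPD2, DYRK1A, MUTYH, HNRNPC, THOC2, TMEM91 and SH3TC1 were not called. In PSMD11 the difference was -0.550 at 2 days and -0.943 at 7 days. The 7-day MS023 libraries had 56, 43 and 42 reads on this event, with 0 spliced reads in each.

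**Figure D5:**
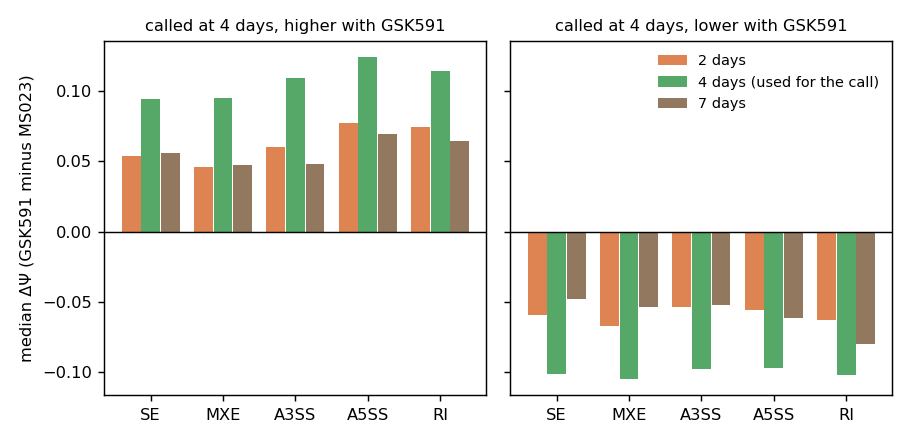
Median ΔΨ (vertical axis, GSK591 minus MS023) of the events called higher (left) and lower (right) at 4 days, by event type (horizontal axis), with a bar for each of 2, 4 and 7 days. The 4-day values were used for the call, and the medians at 2 and 7 days, over the events measured there, have the same sign and are smaller in size.

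A change with time of the difference between the inhibitors passed the test in few events. No interval of this change was computed, so the other events may have changed too. A test of inhibitor by day in 12 libraries passed for 115 of 83805 events (0.137%) between 4 and 2 days, of which 98 were larger at 4 days, and for 521 of 66076 (0.788%) between 4 and 7 days, of which 327 were larger at 4 days. RI were the most frequent, with 36 of 3741 (0.962%) and 144 of 3634 (3.96%). With limma 1 and 0 events passed, while 5366 and 5409 had an unadjusted p under 0.05, against 4843 and 5376 in the quasi-binomial model. In SRSF6 the poison exon was lower with GSK591 at 2 days (ΔΨ = -0.0530) and higher at 4 and 7 days (0.0636 and 0.0602), and the change between 2 and 4 days passed the test (adjusted p = 4.69e-10).

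Cells that received both inhibitors at 1 µM each for 4 days mostly lay nearer to GSK591. The mean Ψ of the 3 co-treated libraries was nearer to the GSK591 mean than to the MS023 mean in 1304 of 1544 RI with higher Ψ (84.5%), 501 of 624 A5SS (80.3%) and 365 of 455 A3SS (80.2%) of that direction. It was nearer in 3135 of 4561 SE with lower Ψ (68.7%) and 1670 of 2333 SE with higher Ψ (71.6%), and in 653 of 970 MXE with higher Ψ (67.3%). In PCBP2 the co-treated mean of 0.0934 ± 0.000212 lay beyond that of GSK591 (0.187), and in RNF216 0.816 ± 0.0358 lay beyond 0.640. PRMT2 lay beyond the other inhibitor, at 0.452 ± 0.0522 against 0.373 with MS023 and 0.181 with GSK591, and MYO18A, at 0.635 ± 0.0265, lay near MS023 (0.673). CACNA1G was between both, at 0.559 ± 0.133. These positions are descriptions, since the events were chosen with the GSK591 and MS023 libraries.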

How the data were processed

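Stranded poly(A) libraries of A549 were used, with 3 libraries per group and 150 nt paired end reads. The authors aligned reads to hg19 with STAR (2.4.2a in the submitters' processing notes, which also list Trim Galore 0.6.5, Picard 2.3.0 and deepTools 3.3.1) and counted splicing events with rMATS, inhibitor against DMSO. The deposited cells hold whole-number counts of inclusion and skipping reads, 3 libraries joined by commas, not normalized, with reads within the segment included. The columns of the authors' own comparisons with DMSO (p-values, FDR and differences of Ψ) were left out, and 18 columns of per-sample values were not used. Samples were grouped from their titles.

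The test was a quasi-binomial model, planned as written except for its prior: the dispersion was moderated by squeezeVar of limma 3.58.1 (R 4.3.3), with the prior taken from events whose rarer form had at least 5 reads per library. This detail was set after the data had been opened. The prior dominated, so nearly all events of a type shared 1 dispersion (2.21 to 2.60). Adjustment was by Benjamini-Hochberg. The tests were checked on simulated data. All simulated events shared 1 dispersion, so the check did not cover events with another spread. Intervals of the difference were built from Wilson intervals (95%), with reads divided by the dispersion. limma on log2 odds (0.5 added to each count), other minimum reads, 1 event per segment, adjustment over all types, a minimum ΔΨ and leaving out each library were tried. Permutation tests and sequences were made in Python 3.11.15 with numpy 2.4.6, pandas 2.3.3, scipy 1.17.1 and pysam 0.24.0.

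Named events were, among called events with at least 50 reads in each library and no overlap between groups, the largest per gene: the 4 highest and 4 lowest SE, the 2 highest and 2 lowest of each other type, and the largest of each of 15 gene lists, with up to 3 genes for SR proteins, hnRNP proteins, PRMTs and export factors. Of these, 1 event is not reported here. The events, lists and tests were chosen with earlier results of these data known.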

Additional observations from a re-analysis of the deposited data

Results flagged for a closer look

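The events below stand here because a test of inhibitor by day found that the difference between GSK591 and MS023 changed with time, which held for 115 events between 4 and 2 days and for 521 events between 4 and 7 days. Between 4 and 2 days, the named events were the exons of DTYMK (ΔΨ = 0.677 at 4 days and 0.317 at 2 days, adjusted p = 0.0468), SRSF7 (0.0728 and 0.0171, adjusted p = 0.0146), SRSF6 (0.0636 and -0.0530, adjusted p = 4.69e-10) and PCBP2 (-0.437 and -0.372, adjusted p = 2.10e-06), and the intron of POLD1 (0.667 and 0.469, adjusted p = 0.000305). The change had opposite signs on both days in SRSF6. Between 4 and 7 days, they were the exons of PRMT2 (-0.191 and 0.0272, adjusted p = 2.40e-07), HNRNPA2B1 (-0.373 and -0.255, adjusted p = 0.000707) and SDR39U1 (-0.698 and -0.493, adjusted p = 0.00563), the donor of FXYD5 (-0.475 and -0.197, adjusted p = 1.83e-13) and the intron of PSMD11 (-0.603 and -0.943, adjusted p = 0.0332). Of the 115 events 29 had opposite signs on the 2 days, and of the 521 events 211. limma passed 1 and 0 events.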

How the results depend on the processing

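Events called by both tests had the same sign in each, while the number of calls depended on the test. Named events were chosen without overlap between groups, so leaving out 1 library could not change their sign. With limma, 3287 SE, 626 MXE, 193 A3SS and 579 A5SS were called. A ΔΨ of at least 0.1 left 3464 SE, 786 MXE, 348 A3SS, 506 A5SS and 938 RI. With a dispersion prior from all events, chosen after seeing the data, 689 SE were called (30.0% of them higher with GSK591), and with at least 30 reads of each form, chosen likewise, 7422 of 18454 SE. The share with higher Ψ under GSK591 was 30.7% of SE, 57.0% of MXE and 64.2% of A3SS with limma, and 32.4% of SE, 60.2% of MXE and 71.1% of A5SS with ΔΨ of at least 0.1. Leaving out 1 library in turn gave 31.9% to 34.7% for SE and 60.6% to 66.0% for MXE. The RI median was 0.0299 without effective length. With limma for the 4-day call, 5429 events had the same sign at 2 days (92.9%) and 4904 at 7 days (92.4%), and inhibitor by day passed for 1 and 0. The cause of these changes was not tested. Of the 46 named events, limma called 34 and the prior from all events 34, and 4 lost their call without 1 MS023 library (DYRK1A, PRMT7, SNRPD2 and SH3TC1). No paired analysis was possible because the columns carry no replicate numbers. Events with few reads of one form limit what the depth can show.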
